A study of Mus musculus with 8 samples.

Results

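The ectonucleotide pyrophosphatase/phosphodiesterase (Enpp) genes Enpp1 to Enpp6 were examined in liver sinusoidal endothelial cells (LSECs), the fenestrated endothelial cells that line the small vessels of the liver. The 6 genes were taken by their symbols from a table of 25428 gene rows, and all 6 were found, each with 1 row. The family was chosen on measured values of this same comparison, in which Enpp6 and Enpp2 lay far apart between the groups, so the differences of the 6 genes are given as a description with no p-value.

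Gene expression was measured on 8 Affymetrix arrays, 4 of Ctnnb1OE-EC and 4 of Ctrl LSECs, to ask what an activated β-catenin changes in these cells. Ctnnb1OE-EC mice carried Clec4g-iCre tg/wt and Ctnnb1(Ex3) fl/wt, so that Cre removes an exon of 1 allele of Ctnnb1 and stabilises β-catenin, the protein through which Wnt signals reach the nucleus. The study calls the Ctrl animals wild-type controls, and their genotype label, Ctrl, does not spell out the alleles. The driver is not restricted to the liver, since endothelial cells of the heart also show its activity. All animals were female C57BL/6J mice aged 2 months, the cells were isolated with magnetic beads against CD146, and each sample pooled the cells of 2 mice, so the spread given here is that between pools. Values are on a log2 scale after robust multiarray analysis (RMA), 1 unit being a doubling of signal, and a difference is the Ctnnb1OE-EC mean minus the Ctrl mean with its standard error (SE).

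Enpp proteins are enzymes of the cell surface or the extracellular space that split phosphodiester bonds, some of them in nucleotides and others in lipids. Enpp1 and Enpp3 cleave nucleoside triphosphates such as ATP, and Enpp1 thereby forms the pyrophosphate that restrains mineralisation and also degrades the cyclic dinucleotide cGAMP outside the cell. Enpp2, known as autotaxin, is a secreted lysophospholipase D that makes lysophosphatidic acid (LPA), a ligand of the receptors Lpar1 to Lpar6. Enpp6 is a choline-specific phosphodiesterase that acts on glycerophosphocholine and lysophosphatidylcholine, and it is known as a marker of newly forming oligodendrocytes in the brain.

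The RefSeq promoter table of build GRCm38.p6 held 4 of the 6 genes, Enpp1, Enpp3, Enpp4 and Enpp6. The 250 bases before the start site of Enpp6 and Enpp4 are shown, because both genes lay lower in all Ctnnb1OE-EC samples. The Enpp6 stretch is chr8:46986637-46986886 on the plus strand, and the Enpp4 stretch is chr17:44105810-44106059 on the minus strand. Capitals mark every match, on either strand, to the letters searched, which were CTTTGA and CTTTGT for the TCF/LEF factors that bind β-catenin, GGGCGG for the GC box, CCAAT for the CCAAT box and TATAAA for the TATA box.
Enpp6: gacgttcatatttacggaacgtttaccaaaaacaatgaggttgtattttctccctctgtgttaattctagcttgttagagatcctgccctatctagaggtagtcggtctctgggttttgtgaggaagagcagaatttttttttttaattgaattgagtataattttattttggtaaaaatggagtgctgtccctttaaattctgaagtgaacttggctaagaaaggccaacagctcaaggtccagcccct
Enpp4: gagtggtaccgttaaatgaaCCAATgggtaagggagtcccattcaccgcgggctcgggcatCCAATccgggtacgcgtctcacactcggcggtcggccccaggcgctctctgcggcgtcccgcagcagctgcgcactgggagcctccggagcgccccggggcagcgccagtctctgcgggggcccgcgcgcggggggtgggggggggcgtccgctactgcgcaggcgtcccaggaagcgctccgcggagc
The Enpp6 stretch held 0 matches to any of these letters and had a GC content of 38.4%, against a median of 52.4% over 32851 promoters of the same length. The Enpp4 stretch held 2 CCAAT matches and 0 TCF/LEF matches, with a GC content of 72.8%. Of the other two genes, Enpp1 held 2 TCF/LEF matches, at bases -247 to -242 and -211 to -206 before the start site, and Enpp3 held 0. Over all 32851 promoters, 27.6% held a TCF/LEF match and 33.8% a CCAAT match. A match is only a run of letters, and its absence from this window says nothing of the factor. In the RefSeq annotation, Enpp4 and Enpp5 are neighbouring coding genes, as are Enpp1 and Enpp3.

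Across the arrays, Axin2, a target gene of Wnt signaling, averaged 7.38 ± 0.27 in Ctnnb1OE-EC and 5.23 ± 0.33 in Ctrl (SD, n = 4 each), a difference of 2.14 ± 0.19 (SE; adjusted p = 0.00136, limma) that was 2.20 ± 0.25 (SE; adjusted p = 0.0288) without Ctnnb1OE-EC replicates 3 and 4. Ctnnb1 itself averaged 10.63 ± 0.07 in Ctnnb1OE-EC and 10.28 ± 0.26 in Ctrl (adjusted p = 0.361), but this row covers the gene as a whole and cannot tell the recombined allele from the intact one. The cells carried LSEC markers at high levels in every sample, the mean of 10 such markers lying between 11.66 and 11.89 in Ctnnb1OE-EC and between 11.997 and 12.13 in Ctrl. Markers of other liver cells also gave signal. The hepatocyte list lay between 6.73 and 10.06 in Ctnnb1OE-EC and between 7.70 and 9.71 in Ctrl. The Kupffer cell list lay between 7.28 and 9.22 in Ctnnb1OE-EC and between 7.42 and 9.43 in Ctrl. On the first principal component (30.6% of the variance), 2 samples were far from the others, Ctnnb1OE-EC replicates 3 and 4, at 43.1 and 36.3, with the remaining 6 samples between -26.64 and 3.59. The median of each array was 4.20, and since no detection call was used here, a value near or below that median may hold little but background.

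Enpp6 was much lower in Ctnnb1OE-EC than in Ctrl LSECs, whereas Enpp2 was higher on average but only in part of the Ctnnb1OE-EC samples. Enpp5 and Enpp4 lay modestly lower in all Ctnnb1OE-EC samples, and Enpp3 and Enpp1 overlapped between the groups. Over all rows, 234 of 25428 passed an adjusted p of 0.05 (0.920%), 98 of them lower (0.385%) and 136 higher (0.535%) in Ctnnb1OE-EC. Of the 6 Enpp genes, 2 were past that line, Enpp6 and Enpp5, both lower, which describes the values that chose the family and is no test of it. The groups did not overlap for 3 of the 6 genes, all lower, where 7.59% of all rows did not overlap in either direction and 4.04% lay lower without overlap. The median difference of the 6 genes was -0.41, with 4 means lower and 2 higher, and the median over all rows was -0.01. As the same comparison brought the family up, nothing is read from these counts.

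**Figure D1:**
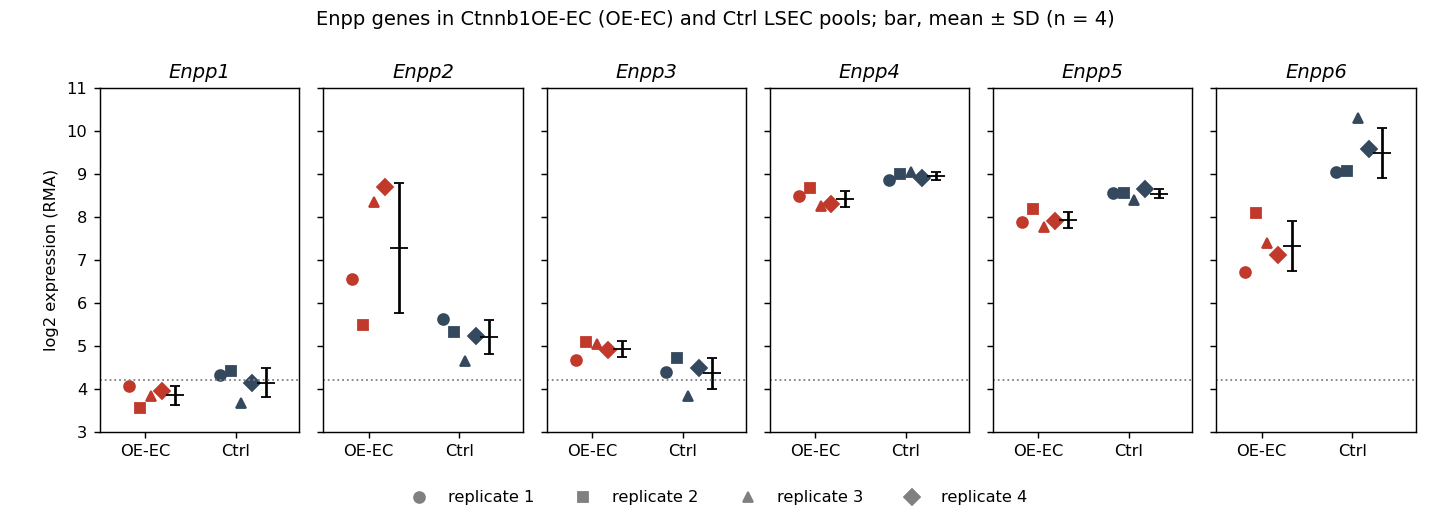
Log2 expression of the 6 Enpp genes in each sample, Ctnnb1OE-EC (red, OE-EC) left of Ctrl (dark blue), with the replicate shown by the symbol and the mean ± SD (n = 4) as a black bar. The dotted line is the array median of 4.20. The groups lie apart for Enpp6, Enpp5 and Enpp4, and Enpp2 spreads from 5.49 to 8.70 in Ctnnb1OE-EC.

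Enpp6 and Enpp2, on whose values the family was chosen, showed the widest differences of the Enpp genes, in opposite directions. That choice fixed their place, so no pattern by substrate is read from it. Enpp7, a sphingomyelinase and thus also directed at a lipid, differed by only 0.01. Enpp6 had log2 values of 6.72, 8.10, 7.40 and 7.13 in Ctnnb1OE-EC replicates 1 to 4, against 9.04, 9.07, 10.30 and 9.58 in Ctrl replicates 1 to 4. Every Ctnnb1OE-EC sample was below every Ctrl sample, and the highest Ctnnb1OE-EC sample was 0.94 below the lowest Ctrl sample. The means were 7.34 ± 0.58 in Ctnnb1OE-EC and 9.50 ± 0.59 in Ctrl (SD, n = 4 each), so that Enpp6 was 4.48-fold lower (log2 difference -2.16 ± 0.34, SE). Only 2 of the 25428 rows had a more negative difference. The spread was similar in both groups, with replicate 2 the highest in Ctnnb1OE-EC and replicate 3 the highest in Ctrl. Without Ctnnb1OE-EC replicates 3 and 4 the difference was -2.09, and with each sample left out in turn it lay between -2.42 and -1.89. In bulk samples, fewer cells that carry a transcript and less of it per cell cannot be told apart. Beside Enpp6, the mean of the 10 LSEC markers lay 0.39, 0.16, 0.36 and 0.32 below the Ctrl mean in Ctnnb1OE-EC replicates 1 to 4 and within -0.05 to 0.08 of it in Ctrl, with 9 of 10 means lower, a median difference of -0.13, and 1, Lyve1, past the threshold. Lyve1 carried much of this mean, since the other 9 markers stood at -0.16, -0.01, -0.19 and -0.22 in Ctnnb1OE-EC replicates 1 to 4, against -0.06 to 0.04 in Ctrl. The part of the LSEC markers in the Enpp6 difference was not tested.

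Enpp2 (autotaxin) had log2 values of 6.56, 5.49, 8.35 and 8.70 in Ctnnb1OE-EC replicates 1 to 4, against 5.61, 5.32, 4.65 and 5.23 in Ctrl. Replicates 3 and 4 of Ctnnb1OE-EC were high, replicate 1 was raised less, and replicate 2 was within the Ctrl range, so the groups overlapped. Its means were 7.27 ± 1.52 in Ctnnb1OE-EC and 5.20 ± 0.40 in Ctrl (SD, n = 4 each), which is 4.21-fold higher (log2 difference 2.07 ± 0.64, SE). Only 91 rows had a larger SD within Ctnnb1OE-EC, and only 43 had a more positive difference. Without Ctnnb1OE-EC replicates 3 and 4, the difference was 0.82 ± 0.35 (SE).

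Of the 14 cell type marker lists examined, several were high in Ctnnb1OE-EC replicates 3 and 4, where Enpp2 was highest, and others were not. For Ctnnb1OE-EC replicates 1 to 4, the mean of the 7 adrenal cortex markers stood at -0.24, -0.15, 2.32 and 1.62 relative to the Ctrl mean, against -0.14 to 0.14 in Ctrl. All 7 had higher means in Ctnnb1OE-EC but 0 passed the threshold (0 at an unadjusted p under 0.05, limma), and 4 of the 7 had group means below the array median in both groups. The list level ranged between 3.08 and 5.65 in Ctnnb1OE-EC and between 3.19 and 3.47 in Ctrl. Star, which carries cholesterol into mitochondria for steroid synthesis, was at 3.65, 4.39, 8.32 and 7.79 in Ctnnb1OE-EC, against 4.35, 4.55, 5.40 and 4.37 in Ctrl. Like Enpp2, it was thus high in Ctnnb1OE-EC replicates 3 and 4.

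Smooth muscle markers (6 measured) stood at -0.65, 0.60, 1.58 and 1.87 in Ctnnb1OE-EC, against -0.99 to 1.80 in Ctrl, where replicate 2 was the highest. Enpp2 was at 5.32 in that Ctrl replicate. Markers of neutrophils and monocytes (6 measured) stood at 0.34, -0.01, 1.26 and 1.44 in Ctnnb1OE-EC, against -0.51 to 0.75 in Ctrl. All 6 means of each of these lists were higher in Ctnnb1OE-EC and 0 passed, with 0 smooth muscle markers and 1 marker of neutrophils and monocytes at an unadjusted p under 0.05. The smooth muscle level ranged between 5.06 and 7.58 in Ctnnb1OE-EC and between 4.72 and 7.50 in Ctrl, and the level of neutrophils and monocytes between 4.84 and 6.28 in Ctnnb1OE-EC and between 4.34 and 5.60 in Ctrl. Hepatocyte markers (8 measured) ran the other way, at 1.41, -0.11, -1.92 and -1.15 in Ctnnb1OE-EC, against -0.95 to 1.06 in Ctrl. So did pancreatic acinar markers (6 measured), at 1.91, 0.39, -2.53 and -1.97 in Ctnnb1OE-EC, against -2.52 to 2.37 in Ctrl. Kupffer cell markers (6 measured) stood at 0.04, -1.24, -0.03 and 0.70 in Ctnnb1OE-EC, against -1.10 to 0.91 in Ctrl. Markers of continuous endothelial cells (8 measured) stood at 0.91, 0.65, 1.38 and 1.37 in Ctnnb1OE-EC, against -0.24 to 0.21 in Ctrl, with 5 of 8 means higher and 2 past the threshold, Cd34 and Apln. Without these 2 genes, the other 6 stood at 0.08, -0.09, 0.74 and 0.69 in Ctnnb1OE-EC, against -0.31 to 0.28 in Ctrl, so that only replicates 3 and 4 were above the Ctrl range. Of these 6 genes, 3 had higher and 3 had lower means in Ctnnb1OE-EC. Esm1 of this list, a gene of endothelial tip cells, was at 5.68, 5.39, 8.44 and 8.75 in Ctnnb1OE-EC, against 6.00, 5.89, 5.51 and 6.28 in Ctrl, and was high in the same samples as Enpp2. Vwf was also highest in Ctnnb1OE-EC replicates 3 and 4, at 11.09 and 11.15. The list did not move as a whole, since Emcn, Ly6a and Plvap differed by -0.25, -0.08 and -0.49, and Sox17 by 0.06. The part of these cell types in the Enpp2 values was not tested.

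**Figure D2:**
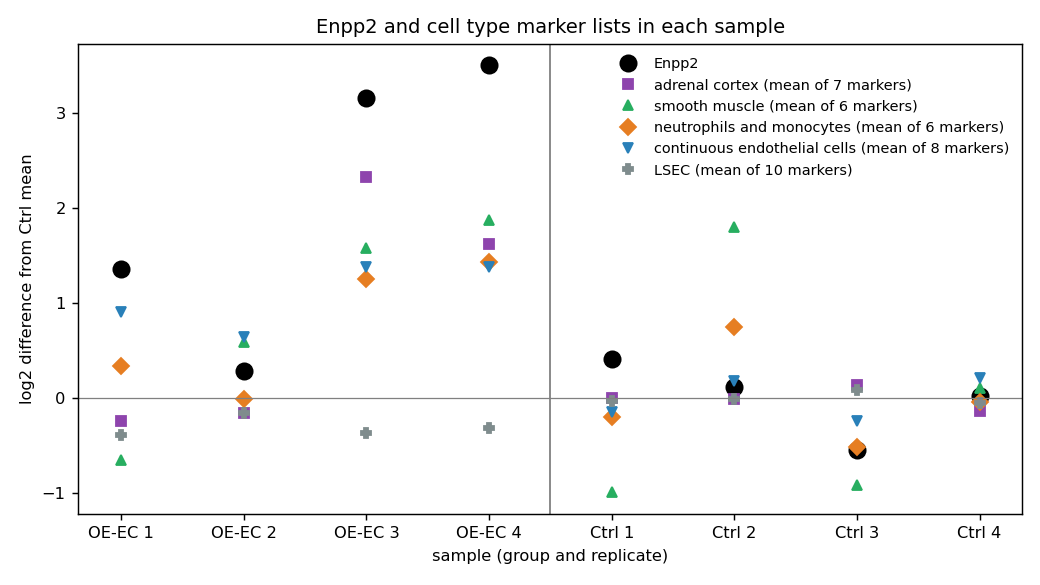
Enpp2 and the means of 5 marker lists in each sample, as log2 difference from the Ctrl mean (vertical axis), with the 4 Ctnnb1OE-EC samples (OE-EC) left of the 4 Ctrl samples. Enpp2 and the adrenal cortex list are high in Ctnnb1OE-EC replicates 3 and 4, whereas the LSEC list lies between -0.39 and -0.16 in Ctnnb1OE-EC.

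Enpp5 and Enpp4 both lay lower in Ctnnb1OE-EC. Enpp5, for which fewer substrates are known than for its relatives, had log2 values of 7.88, 8.20, 7.76 and 7.92 in Ctnnb1OE-EC, against 8.55, 8.56, 8.40 and 8.66 in Ctrl. No Ctnnb1OE-EC sample reached the Ctrl range, and the gap was 0.21. The means were 7.94 ± 0.18 in Ctnnb1OE-EC and 8.55 ± 0.11 in Ctrl (SD, n = 4 each), which is 1.52-fold lower (log2 difference -0.61 ± 0.11, SE).

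Enpp4, a surface enzyme of vascular endothelium that in humans releases platelet-activating ADP from diadenosine triphosphate, had log2 values of 8.48, 8.67, 8.25 and 8.30 in Ctnnb1OE-EC, against 8.86, 9.01, 9.06 and 8.90 in Ctrl. The groups again did not overlap, with a gap of 0.19. Its means were 8.43 ± 0.19 in Ctnnb1OE-EC and 8.96 ± 0.09 in Ctrl (SD, n = 4 each), which is 1.45-fold lower (log2 difference -0.53 ± 0.11, SE). For both, replicate 2 was the highest and replicate 3 the lowest of the Ctnnb1OE-EC samples. Without Ctnnb1OE-EC replicates 3 and 4, the difference of Enpp4 was -0.38 ± 0.12 (SE) and that of Enpp5 was -0.51.

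Enpp3, a nucleotide pyrophosphatase and activation marker of basophils in humans, had log2 values of 4.68, 5.10, 5.04 and 4.89 in Ctnnb1OE-EC, against 4.38, 4.71, 3.84 and 4.49 in Ctrl. Only Ctnnb1OE-EC replicate 1 was within the Ctrl range, below Ctrl replicate 2. The means were 4.93 ± 0.19 in Ctnnb1OE-EC and 4.35 ± 0.37 in Ctrl (SD, n = 4 each), a log2 difference of 0.57 ± 0.18 (SE) at levels near the array median. Of 6 markers of basophils and mast cells, 5 had group means below the array median in both groups, with the list mean at 3.76 to 4.01 in Ctnnb1OE-EC and 3.66 to 3.80 in Ctrl. The sixth, Hdc, the enzyme that makes histamine, was well above it, at 10.70, 10.38, 9.99 and 10.56 in Ctnnb1OE-EC, against 9.21, 9.18, 9.96 and 9.28 in Ctrl. The Hdc groups did not overlap, by a gap of only 0.04, and the difference of 1.00 ± 0.21 (SE) did not pass the threshold (adjusted p = 0.0745, limma). The other 5 markers differed by -0.09 to 0.12, so Hdc alone does not stand for these cells. The part of these cells in the Enpp3 values was not tested.

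Enpp1 had log2 values of 4.07, 3.54, 3.83 and 3.94 in Ctnnb1OE-EC, against 4.32, 4.42, 3.67 and 4.14 in Ctrl. Its groups overlapped, and only Ctrl replicates 1 and 2 were above the array median. The means were 3.85 ± 0.23 in Ctnnb1OE-EC and 4.14 ± 0.33 in Ctrl (SD, n = 4 each), with a log2 difference of -0.29 ± 0.18 (SE). Enpp7, an alkaline sphingomyelinase of the gut and the remaining measured gene of the family, was below the array median in every sample, at 3.01 ± 0.22 in Ctnnb1OE-EC and 3.00 ± 0.11 in Ctrl (SD, n = 4 each; difference 0.01 ± 0.12, SE; adjusted p = 0.983).

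The direction of each of the 6 differences was the same with any single sample left out. For Enpp6, Enpp5 and Enpp4, whose groups did not overlap, it could not have been otherwise. The difference of Enpp2 was lowest without Ctnnb1OE-EC replicate 4 (1.60) and highest without Ctnnb1OE-EC replicate 2 (2.67). For Enpp5 it lay between -0.69 and -0.55, and for Enpp4 between -0.61 and -0.47. Enpp3 differed by 0.40 without Ctrl replicate 3, its lowest Ctrl sample, and by 0.69 without Ctrl replicate 2, its highest. Enpp1 varied between -0.45 without Ctrl replicate 3 and -0.19 without Ctnnb1OE-EC replicate 2.

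**Figure D3:**
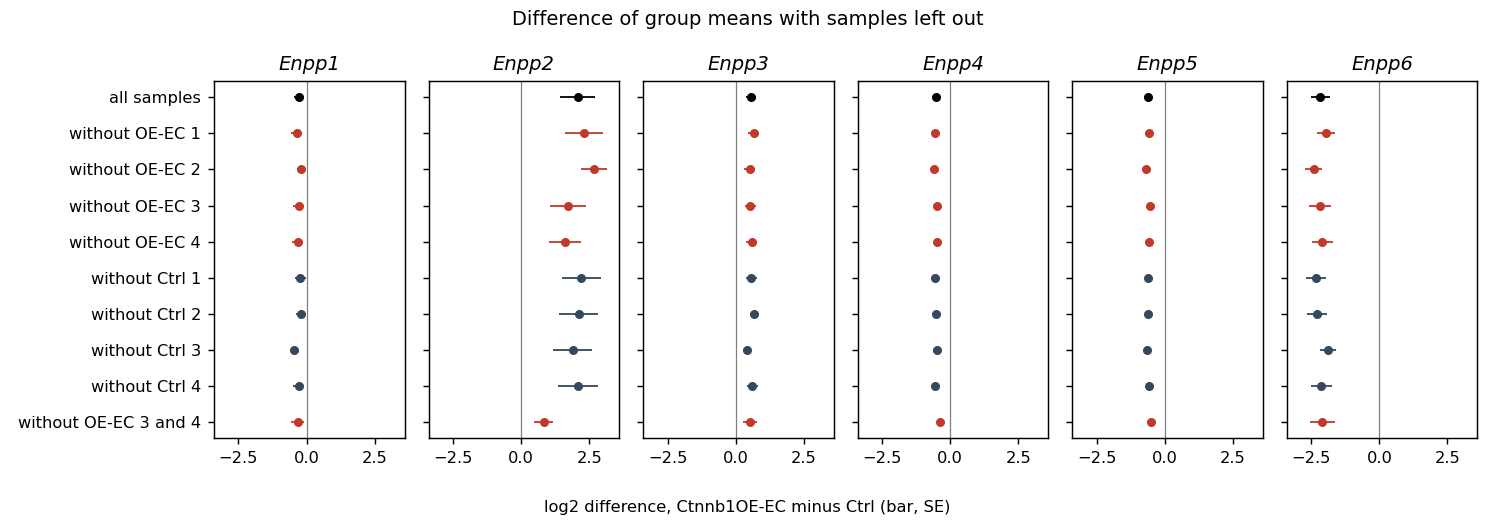
Log2 difference of each Enpp gene (horizontal axis, Ctnnb1OE-EC minus Ctrl, bar SE) with all 8 samples (black), without 1 Ctnnb1OE-EC sample (red), without 1 Ctrl sample (dark blue) and without Ctnnb1OE-EC replicates 3 and 4 (red, bottom). Enpp6 stays between -2.42 and -1.89. Enpp2 is at 0.82 without both replicates, which held its highest values, so that leaving them out had to lower it.

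The 3 genes nearest to Enpp6 over the 8 samples, by the root mean square (RMS) difference of log2 values after subtracting the Ctrl mean of each gene, were Rarb (0.389), Flrt1 (0.403) and Lyve1 (0.464). Rarb, a retinoic acid receptor, was at 6.25, 6.96, 6.33 and 5.81 in Ctnnb1OE-EC, against 7.60, 8.24, 8.63 and 8.21 in Ctrl. Lyve1, the hyaluronan receptor by which LSECs are recognised, was at 9.76, 10.61, 10.22 and 10.96 in Ctnnb1OE-EC, against 11.84, 11.94, 12.63 and 12.24 in Ctrl. Flrt1, a leucine-rich transmembrane protein, differed by -2.32 ± 0.28 (SE). In all 3 genes, as in Enpp6, Ctrl replicate 3 was the highest of all samples and every Ctnnb1OE-EC sample was below every Ctrl sample.

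The genes nearest to Enpp2 were Igf2 (0.497), Myc (0.570) and Slc1a5 (0.572). Igf2, a growth factor, was at 6.79, 5.81, 7.92 and 8.34 in Ctnnb1OE-EC, against 5.23, 5.45, 5.69 and 4.76 in Ctrl. Myc, a transcription factor whose gene is a known target of β-catenin, was at 7.79, 7.38, 8.71 and 8.71 in Ctnnb1OE-EC, against 5.96, 6.04, 5.82 and 5.91 in Ctrl. Slc1a5, a glutamine transporter, differed by 2.06 ± 0.36 (SE). All 3 were highest in Ctnnb1OE-EC replicates 3 and 4, but unlike Enpp2 their groups did not overlap. Without those 2 replicates, the differences were 1.02 for Igf2, 1.65 for Myc and 1.37 for Slc1a5, and among the neighbours of Enpp6 they were -1.57 for Rarb, -2.03 for Flrt1 and -1.98 for Lyve1. These genes were picked for likeness over the same samples, so their differences are a description.

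**Figure D4:**
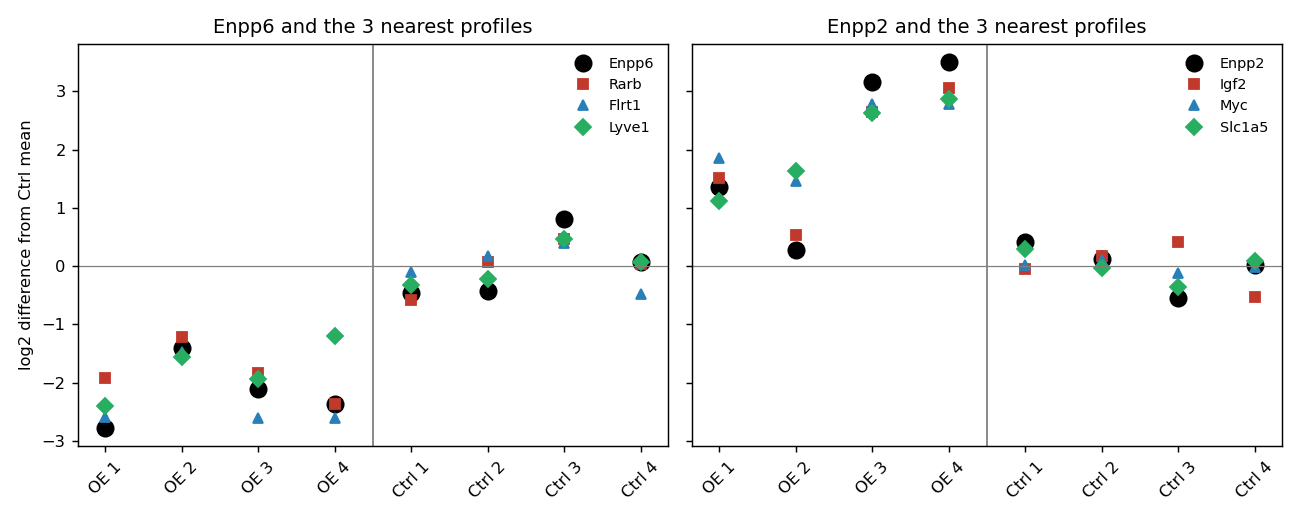
Log2 difference from the Ctrl mean (vertical axis) in each sample for Enpp6 with Rarb, Flrt1 and Lyve1, and for Enpp2 with Igf2, Myc and Slc1a5, with the 4 Ctnnb1OE-EC samples (OE) left of the 4 Ctrl samples. In the Enpp2 panel, Ctnnb1OE-EC replicates 3 and 4 are the highest for each gene.

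Genes that act beside the Enpp enzymes were taken from lists written by function, with earlier results of these data known. Of 74 such genes, 73 were measured, and 2 passed the threshold over all rows, both higher in Ctnnb1OE-EC (2 higher and 0 lower). Among all rows, 0.920% passed, 0.535% higher and 0.385% lower, and with so few genes nothing is read from the count. The 2 genes were Lpar1, a receptor for the LPA that autotaxin makes, and Flvcr2, a choline transporter of the blood-brain barrier. The median difference of the 73 measured genes was -0.04, beside -0.01 over all rows.

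Lpar1 was at 6.01, 6.61, 6.40 and 6.09 in Ctnnb1OE-EC replicates 1 to 4, against 5.14, 5.44, 5.25 and 4.92 in Ctrl. The groups did not overlap, and replicate 2, the lowest Ctnnb1OE-EC sample for Enpp2, was the highest for Lpar1. Lpar1 rose 2.12-fold, with means of 6.28 ± 0.28 in Ctnnb1OE-EC and 5.19 ± 0.22 in Ctrl (SD, n = 4 each; log2 difference 1.09 ± 0.16, SE; adjusted p = 0.0175). The adjusted p was 0.0667 without Ctnnb1OE-EC replicate 3, 0.0654 without Ctrl replicate 1, 0.0597 without Ctrl replicate 4 and 0.136 without Ctnnb1OE-EC replicates 3 and 4. Markers of stellate cells and fibroblasts (8 measured) stood at 0.17, 0.41, 0.37 and -0.15 in Ctnnb1OE-EC replicates 1 to 4 relative to the Ctrl mean. In Ctrl they stood at -1.24 to 0.52. The part of these or other cells in the Lpar1 values was not tested. Of the 6 LPA receptors, 1 passed the threshold. The other differences were 0.03 for Lpar2 (adjusted p = 0.954), -0.23 for Lpar3 (0.642) and 0.35 for Lpar4 (0.665). Lpar2 and Lpar3 were below the array median in every sample. Lpar5 differed by 0.11 (adjusted p = 0.846). Lpar6 averaged 10.84 ± 0.23 in Ctnnb1OE-EC and 11.12 ± 0.14 in Ctrl (SD, n = 4 each; difference -0.28; adjusted p = 0.465).

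None of the 7 genes for the supply and breakdown of LPA passed (0 of 7 by limma or by a one-way test of each gene, 2 at an unadjusted p under 0.05; median difference -0.08). Plpp3, a lipid phosphate phosphatase that inactivates LPA at the cell surface, averaged 11.73 ± 0.39 in Ctnnb1OE-EC and 12.23 ± 0.06 in Ctrl (SD, n = 4 each). All 4 Ctnnb1OE-EC samples were below the Ctrl samples, replicate 3 by the most at 11.16, with a difference of -0.50 ± 0.18 (SE; adjusted p = 0.307). Without Ctnnb1OE-EC replicates 3 and 4 it was -0.345 (adjusted p = 0.339). Its relatives Plpp2 and Plpp1 differed by 0.43 (adjusted p = 0.375) and -0.22 (adjusted p = 0.471).

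Among 25 genes that handle choline and glycerophosphodiesters, the substrates and products of Enpp6, 1 rose and 0 fell (median difference -0.05). Flvcr2 averaged 4.45 ± 0.39 in Ctnnb1OE-EC and 3.47 ± 0.10 in Ctrl (SD, n = 4 each; difference 0.98 ± 0.18, SE; adjusted p = 0.0440), with all Ctrl samples below the array median. With 1 sample left out, its adjusted p was 0.00476 without Ctnnb1OE-EC replicate 2 and between 0.0917 and 0.140 without any of the other 7, and it was 0.262 without Ctnnb1OE-EC replicates 3 and 4 (difference 0.84). Cept1 and Chpt1, which join choline to diacylglycerol in the last step of phosphatidylcholine synthesis, differed by -0.45 (adjusted p = 0.151) and -0.28 (adjusted p = 0.357). Bhmt, which uses the choline product betaine, differed by -0.46 (adjusted p = 0.508) with all samples. It is named only because it passed in some of the many fits with samples left out. Its difference was -0.73 (adjusted p = 0.0319) without Ctnnb1OE-EC replicate 4 and -0.82 (adjusted p = 0.0420) without Ctnnb1OE-EC replicates 3 and 4. Without Ctnnb1OE-EC replicate 3 alone, the adjusted p was 0.703.

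The lists on nucleotides held no call by limma or by a one-way test of each gene. Of 8 genes for pyrophosphate and mineral handling, 0 passed and 0 had an unadjusted p under 0.05 (median -0.01), and the smallest p were those of Ank, which exports ATP and pyrophosphate (-0.26, adjusted p = 0.520), the phosphatase Phospho1 (-0.25, 0.653) and the phosphate transporter Slc20a2 (0.21, 0.654). Of 8 genes for the breakdown of extracellular nucleotides, 0 passed and 1 had an unadjusted p under 0.05 (median -0.11), with Cd38, an NAD-cleaving enzyme, at -0.35 (adjusted p = 0.290), Entpd3 at -0.21 (0.473) and Bst1 at 0.42 (0.657). Of 14 nucleotide receptors, 0 passed and 2 had an unadjusted p under 0.05 (median -0.00). The ATP-gated channel P2rx4 differed by -0.45 (adjusted p = 0.246), the ADP receptor P2ry1 by -0.45 (0.369) and the UDP receptor P2ry6 by 0.43 (0.528). Of 4 genes for the sensing of cGAMP, the dinucleotide that Enpp1 degrades, 0 passed and 1 had an unadjusted p under 0.05 (median -0.10). Tbk1, a kinase downstream of the sensor, differed by -0.27 (adjusted p = 0.247), Cgas by -0.15 (0.762) and Sting1 by 0.09 (0.827).

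**Figure D5:**
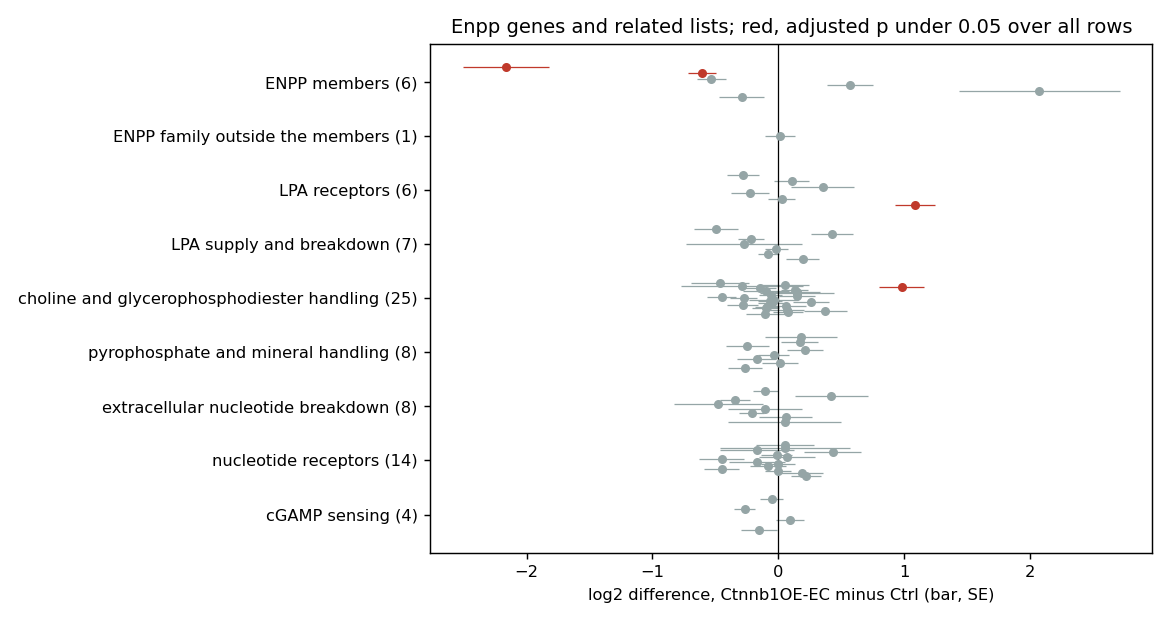
Log2 difference (horizontal axis, Ctnnb1OE-EC minus Ctrl, bar SE) of the 6 Enpp genes and of the related genes by list, with the number measured in brackets. Red points passed an adjusted p of 0.05 over all rows, which were Enpp6, Enpp5, Lpar1 and Flvcr2. For the Enpp genes, chosen on this same comparison, the color is a description and no test.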

How the data were processed

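The authors hybridised RNA of 4 Ctnnb1OE-EC and 4 Ctrl LSEC pools to Affymetrix arrays and deposited log2 values after RMA with a custom Entrez-based gene definition. RMA corrects background and quantile-normalizes, so low values are compressed, and its version was not given in the sources used here. Of 25428 rows, 25237 were named through the RefSeq gene ID (GRCm38.p6), among them Enpp1 and Enpp2, which the platform annotation used here did not list. A further 159 rows had no name and were tested unnamed.

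The fit used limma 3.58.1 under R 4.3.3 (group means, eBayes without trend, two-sided, Benjamini-Hochberg over all rows, threshold 0.05), with no filter, pseudocount or covariate. The code was tested on simulated data. No sample was left out, and 0 pairs of samples were identical. Text on related genes names all that passed, up to 3 with the smallest p per list, and all LPA receptors and Enpp7. Bhmt was added because it passed with some samples left out. Profile neighbours are given for Enpp genes that differed by over 1 log2 unit. The Enpp genes and the lists, adrenal cortex and smooth muscle included, were chosen with earlier results of these data known.

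Alternatives were the methods' test (a one-way test of each gene with Benjamini-Hochberg adjustment, rebuilt here from its short description and not the study's own software or settings), a trended robust prior (statmod 1.5.0), array weights, repeated quantile normalization, median centring, 2 filters on low values, named rows alone, the replicate number as a block, samples left out, and thresholds of 0.01 and 0.1. Means of the LSEC and continuous endothelial lists without their called genes were added after seeing the data. Replicate numbers were not treated as pairs. The number of arrays limits the precision.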

Additional observations from a re-analysis of the deposited data

Results flagged for a closer look

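Among the 62 groups of 4 values examined for an isolated sample (31 genes, both genotypes), 2 held one by Dixon's criterion, and chance alone marks about 1 in 20 groups. Both were in Ctrl replicate 3. Lpar3, an LPA receptor, was at 3.58 there, against 2.93 to 3.03 in the other Ctrl samples, all below the array median. Plpp2, a lipid phosphate phosphatase, was at 4.58 there, against 5.05 to 5.12 in the other Ctrl samples.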

How the results depend on the processing

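None of the 6 Enpp differences changed sign under any alternative run, which is a description and no support. For Enpp6, Enpp5 and Enpp4, whose groups did not overlap, leaving samples out could not change it. The deposited values were already quantile-normalized, so repeating that step or centring medians could change little. The replicate block leaves each difference unchanged by design. Without Ctnnb1OE-EC replicates 3 and 4 the difference of Enpp2 was 0.82 and that of Enpp4 -0.38. Over all rows, 234 passed with all samples, 20 by the methods' test as rebuilt here, 61 without Ctnnb1OE-EC replicates 3 and 4, 68 at a threshold of 0.01, 386 at 0.1, and 92 to 223 with 1 sample left out. Of the 6 Enpp genes, 2 passed with all samples, 0 by the methods' test, 0 without Ctnnb1OE-EC replicates 3 and 4, 0 at 0.01, 3 at 0.1 and with the trended prior (Enpp4 added), and 0 to 3 with 1 sample left out (3 without Ctnnb1OE-EC replicate 2, 1 without Ctrl replicate 1, 2 or 3, 0 without any of the other 4). Of the related genes, 2 passed with all samples, 0 by the methods' test (Lpar1 adjusted p = 0.111, Flvcr2 0.169), 1 with rows below the median filtered out (Flvcr2 was not tested), 1 without Ctnnb1OE-EC replicates 3 and 4 (Bhmt), 0 at 0.01, and 0 to 2 with 1 sample left out. These counts describe genes chosen on the same comparison. Leaving samples out gives fewer samples to each fit, and for the other changes the cause was not tested. The replicate block gave 86 calls over all rows, 0 of the 6 Enpp genes and 1 related gene, Lpar1 (adjusted p = 0.0246). The labels do not say that replicate numbers pair the samples, and the correlations of same-numbered deviations were 0.253, -0.177, 0.027 and -0.153 for replicates 1 to 4. Array weights, repeated quantile normalization, median centring, the filter at the 25th percentile and named rows alone left the number of Enpp genes and of related genes called at 2. Enpp1, Lpar2, Lpar3, Enpp7 and, in Ctrl, Flvcr2 lie at signals near background, which limits their differences.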
